A study of Mus musculus with 12 samples.

Results

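The genes described here are the feedback genes that extracellular signal-regulated kinase (ERK) signalling switches on, together with a pair of Etv transcription factors that are read out as its targets. They are the 4 phosphatase genes Dusp1, Dusp4, Dusp5 and Dusp6, the 3 inhibitor genes Spry2, Spry4 and Spred1, and Etv4 and Etv5. They were found by gene symbol among the 78298 genes of the deposited table, and all 9 were among the 18600 genes that passed the filter on low counts.

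Expression was measured by RNA-seq of poly(A) RNA from mouse hippocampus, in 4 libraries for each of 3 groups. Treatment mice went through 28 days of chronic unpredictable mild stress and, from day 15 on, received poricoic acid A by gavage at 20 mg/kg each day for 14 days. Model mice went through the same stress and received saline. Control mice were left unstressed and were given saline. All were male C57BL/6 mice, 6 to 8 weeks old when bought, and mice of all 3 groups had been kept in the study for preferring sucrose before any stress. Library totals lay between 17083260 and 27479083 estimated counts, and all libraries are of 1 batch per the labels. The library numbers of Treatment replicates 2 and 3 (1631 and 1636) stand apart from the other 10, which lie between 1868 and 1898. None of the 12 hippocampal neuron markers or the 12 dentate granule cell markers was at 0 in any library. The labels do not say that each library is a separate mouse, so p-values here cover only the spread among these libraries, which may be technical.

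As background, growth factor and neurotrophin receptors act through Ras, Raf and MEK to activate ERK, which enters the nucleus and raises the transcription of a small group of genes. Some of them close a loop: DUSP phosphatases remove the activating phosphates from ERK and related kinases, while Sprouty and Spred proteins act further up, between the receptor and Raf. Because such genes can follow ERK activity, transcripts of some of them are often used as a readout of it. ERK activity itself was not measured here. In the hippocampus ERK signalling takes part in lasting synaptic plasticity, and in rat and human hippocampus Dusp1 has been linked to stress and depression.

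Of the 9 genes, only Etv5 passed the test in any of the 3 comparisons, and it did so in Treatment against Control. The test was edgeR's quasi-likelihood test with Benjamini-Hochberg adjustment over all 18600 genes, and a gene passed at an adjusted p under 0.05. In Treatment against Control 19 genes passed, 0.102% of those tested, and Etv5 was the 9th of them by p. Unadjusted edgeR p-values under 0.05 were found in that comparison for 2 of the 9, Spred1 and Etv5, beside 13.9% of all genes tested. DESeq2 passed 1 of the 9, Etv5, beside 430 genes in all (2.31%). In Model against Control 147 genes passed, 0.79% of those tested, and 0 of the 9 genes were among them. Unadjusted p-values under 0.05 were found there for 3 of the 9, Dusp4, Spred1 and Etv5, beside 15.6% of all genes tested. DESeq2 passed 2 of the 9, beside 658 genes in all (3.54%). In Treatment against Model 350 genes passed, 1.88% of those tested, and 0 of the 9 were among them. Only Etv5 had an unadjusted p under 0.05 there, beside 18.5% of all genes. Neither DESeq2, which passed 5.85% of all genes, nor limma-voom passed any of the 9.

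Most of the differences from Control were positive. In Model against Control 8 of the 9 log2 fold changes were above 0, with a median of 0.15, beside 47.3% of all genes tested and a median of -0.01. In Treatment against Control 9 of the 9 were above 0, with a median of 0.12, beside 47.9% of all genes and a median of -0.01. These comparisons share the Control libraries, so their directions are not separate evidence. In Treatment against Model 3 of the 9 were above 0, with a median of -0.01, beside 50.4% of all genes and a median of 0.00184. Across the 26 alternative settings the number above 0 lay between 7 and 9 in Model against Control, between 2 and 6 in Treatment against Model, and between 7 and 9 in Treatment against Control. Group ranges of CPM (estimated counts scaled to library size) did not overlap for 3 of the 9 genes in Model against Control, against 11.4% of all genes tested. The same was true of 1 gene in Treatment against Model (9.5% of all genes) and of 2 genes in Treatment against Control (7.24% of all genes).

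**Figure D1:**
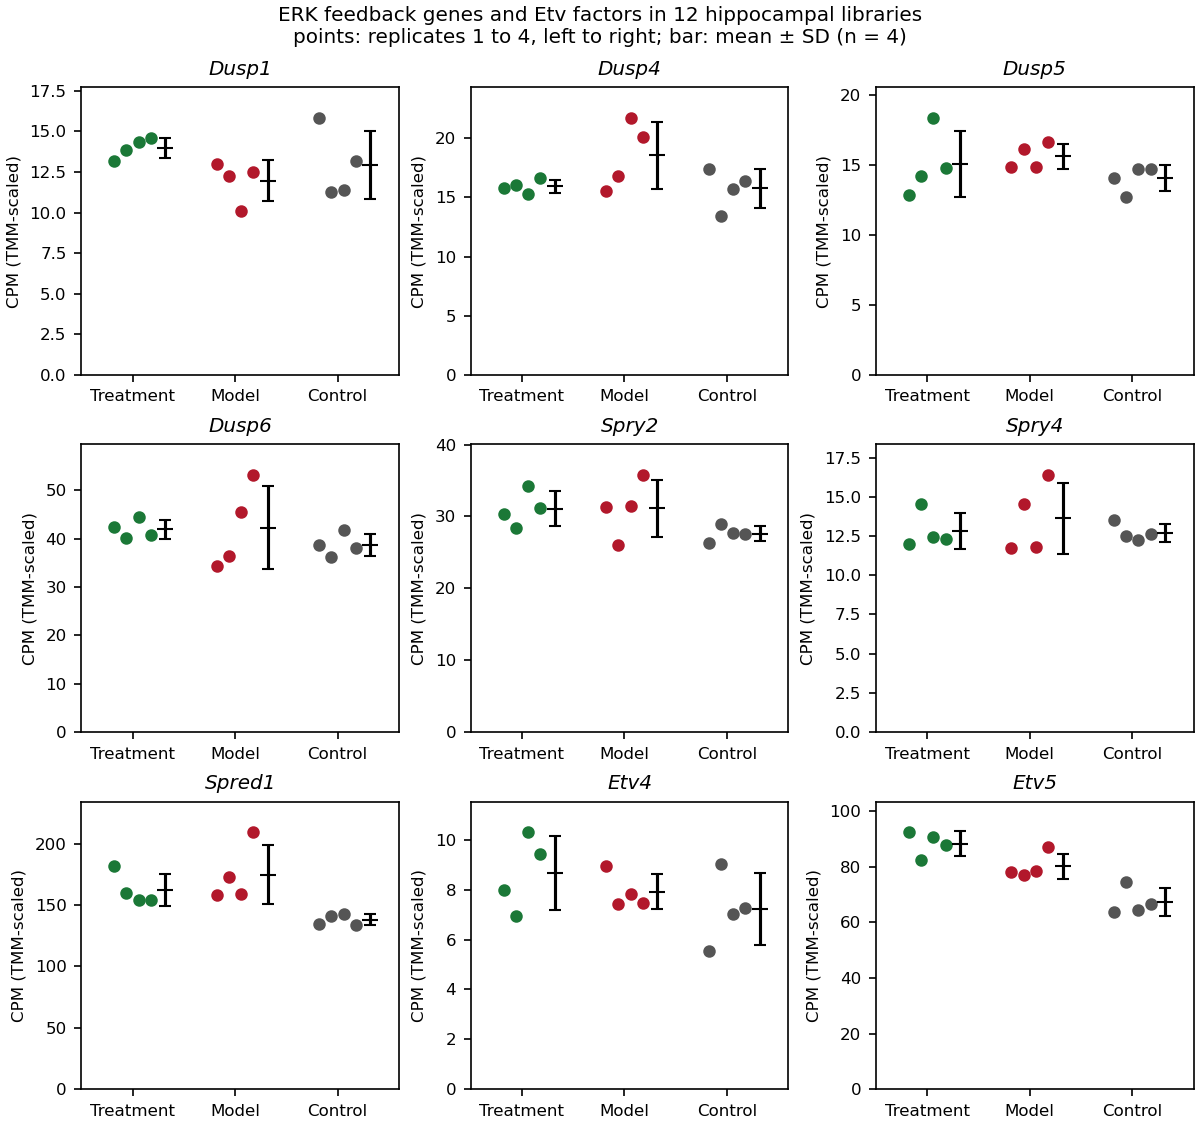
CPM scaled to library size (vertical axes, each starting at 0) of the 9 genes in the 4 libraries of Treatment, Model and Control, with the mean ± SD beside the points. Etv5 lies at 82.3 CPM or above in every Treatment library and at 74.7 CPM or below in every Control library, while the groups of Dusp6 and Etv4 overlap.

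Etv5, an ETS-family transcription factor whose transcription follows FGF and ERK signalling in many tissues, was higher in the treated mice than in unstressed ones. It had 92.4, 82.3, 90.9 and 87.9 CPM in Treatment libraries, 78.1, 77.2, 78.5 and 87.0 CPM in Model libraries, and 63.8, 74.7, 64.5 and 66.5 CPM in Control libraries. Every Treatment library and every Model library lay above every Control library, and Model replicate 4 lay within the Treatment range. The log2 fold change of Treatment over Control was 0.39 ± 0.06 (SE, n = 4 libraries each), a fold of 1.31 with a 95% interval of 1.19 to 1.44, and the edgeR adjusted p was 0.0394. The log2 fold change of Model over Control was 0.25 ± 0.06, and its edgeR adjusted p of 0.0799 did not pass. Treatment over Model gave 0.14 ± 0.06 with an edgeR adjusted p of 0.26, so the difference between stressed mice with and without the compound was not shown.

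The Etv5 difference between Treatment and Control stayed between 0.34 and 0.44 (log2) in all 26 alternatives, but the call itself stood close to the threshold. It passed in 12 of them. Without both Treatment libraries of deviating number it was 0.42 ± 0.08 and passed, with an edgeR adjusted p of 0.0302. It failed in the deposited FPKM values, in a fit of only the 8 libraries compared, and without any 1 of Control replicates 1, 3 and 4, Model replicates 1, 2 and 3, and Treatment replicates 1 and 4. The highest adjusted p among these single omissions was 0.176, without Control replicate 3.

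Marker levels of other cells and regions moved with the same comparison. The summed level of 14 endothelial markers was 346 to 412 CPM in Treatment and 309 to 341 CPM in Control libraries, and 12 of the 14 markers had a log2 fold change above 0. The 10 pericyte and smooth muscle markers summed to 203 to 225 CPM in Treatment and 175 to 191 CPM in Control libraries. The 13 neocortical markers summed to 721 to 1086 CPM in Treatment and 574 to 770 CPM in Control libraries, and 12 of the 13 were above 0. In the other direction, the 12 dentate granule cell markers summed to 839 to 954 CPM in Treatment and 957 to 1127 CPM in Control libraries. Of 10 ependymal markers 0 were above 0, and they summed to 29.3 to 55.1 CPM in Treatment and 50.9 to 64.6 CPM in Control libraries. Of 12 thalamus and habenula markers 1 was above 0, and they summed to 472 to 666 CPM in Treatment and 460 to 1046 CPM in Control libraries. The 18 choroid plexus markers summed to 482 to 1506 CPM in Treatment and 738 to 2449 CPM in Control libraries. None of these markers was at 0 in any library. With the endothelial, neocortical or choroid plexus score as a covariate, the Etv5 log2 fold change was 0.34 ± 0.11, 0.35 ± 0.09 or 0.37 ± 0.09, and its edgeR adjusted p was 0.999, 0.341 or 0.387. With those covariates 0 genes of the whole table passed in Treatment against Control. The endothelial score (mean log2 CPM of its markers) was 4.35 to 4.59 in Treatment and 4.13 to 4.31 in Control libraries, without overlap. The neocortical score barely overlapped, at 5.23 to 5.67 and 4.90 to 5.25. Fits with either of these scores can hardly tell it from the group. The choroid plexus score did overlap, at 2.51 to 3.94 in Treatment and 3.15 to 4.71 in Control libraries. With each of the 3 scores the Etv5 SE was larger than the 0.06 without a covariate. The lost calls do not show what part these markers have. With the hippocampal neuron score as a covariate Etv5 stood at 0.39 ± 0.07 and passed, with an edgeR adjusted p of 0.0448. The part of the pericyte, dentate, ependymal and thalamic markers in this result was not tested. In bulk tissue, fewer cells of a type and less RNA per cell cannot be told apart.

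Etv4, the close relative of Etv5, was the gene with the lowest CPM. It had 8.00, 6.94, 10.3 and 9.44 CPM in Treatment libraries, 8.94, 7.44, 7.83 and 7.47 CPM in Model libraries, and 5.53, 9.05, 7.04 and 7.28 CPM in Control libraries. The 3 groups overlapped. Control held the lowest library and also 1, at 9.05 CPM, that lay above every Model library and within the Treatment range. The log2 fold change was 0.26 ± 0.15 for Treatment over Control, 0.13 ± 0.15 for Model over Control and 0.13 ± 0.15 for Treatment over Model, and none passed (edgeR adjusted p of 0.474, 0.747 and 0.706). The 95% interval of Treatment over Control, -0.06 to 0.58, includes the size of the Etv5 change.

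**Figure D2:**
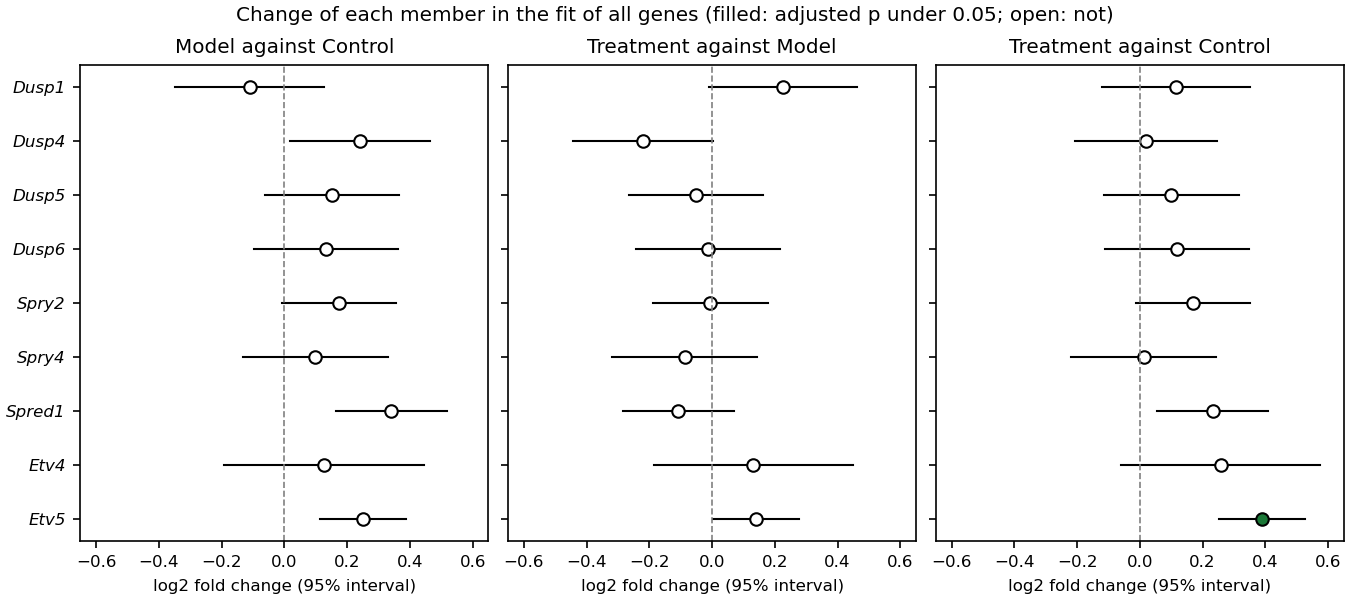
Log2 fold change (horizontal axes) of each gene with its 95% interval in Model against Control, Treatment against Model and Treatment against Control. Etv5 in Treatment against Control (0.39) is the only filled point, and the intervals of Spred1, Etv5 and Dusp4 in Model against Control also stay above 0. So do those of Etv5 in Treatment against Model and of Spred1 in Treatment against Control.

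Spred1, which brings neurofibromin to the membrane and so shuts off Ras, had the largest fold change of the 9 in Model against Control. Its level was 182, 159, 154 and 154 CPM in Treatment libraries, 158, 173, 159 and 209 CPM in Model libraries, and 134, 141, 143 and 134 CPM in Control libraries. All 8 libraries of stressed mice lay above all 4 Control libraries, and Model replicate 4 was the highest of the 12. The log2 fold change of Model over Control was 0.34 ± 0.08 (95% interval 0.16 to 0.52), with an edgeR adjusted p of 0.0659. It did not pass, and without Model replicate 4 it was 0.24 ± 0.07 with an edgeR adjusted p of 0.162. Spred1 passed in 4 of the 26 alternatives, among them DESeq2 with an adjusted p of 0.00528. Treatment over Control gave 0.23 ± 0.08 with an edgeR adjusted p of 0.226, and Treatment over Model -0.11 ± 0.08 with an edgeR adjusted p of 0.533.

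Marker levels of several cell types also moved with Model against Control. The 12 hippocampal neuron markers summed to 10988 to 12272 CPM in Model and 9807 to 11006 CPM in Control libraries, and 12 of the 12 had a log2 fold change above 0, of which 1 rose. The 9 CA1 markers summed to 786 to 871 CPM in Model and 587 to 776 CPM in Control libraries. The 18 choroid plexus markers summed to 618 to 894 CPM in Model and 738 to 2449 CPM in Control libraries. Of the 18, 0 were above 0 (median -1.26) and 2 fell. Log2 fold changes were also mostly below 0 for ependymal markers (0 of 10 above 0, median -0.31), thalamus and habenula markers (1 of 12, median -0.395), microglial markers (1 of 12, median -0.15) and oligodendrocyte markers (2 of 13, median -0.14, of which 2 fell). The summed levels of these 4 lists overlapped between Model and Control. Fewer markers than not were also above 0 for leptomeningeal fibroblasts (3 of 12, median -0.166, of which 1 fell), pericytes and smooth muscle (1 of 9) and astrocytes (3 of 14). Of the 12 dentate granule cell markers 11 were above 0 (median 0.115), of which 1 rose. Of the 14 endothelial markers 6 were above 0, and 1 fell. With the endothelial score as a covariate Spred1 was at 0.35 ± 0.09 with an edgeR adjusted p of 0.11. With the neuron score as a covariate Spred1 was at 0.31 ± 0.12 with an edgeR adjusted p of 0.529, and with the choroid plexus score at 0.315 ± 0.118 with an edgeR adjusted p of 0.432. The neuron score was 8.64 to 8.79 in Model and 8.45 to 8.63 in Control libraries, without overlap, so that fit can hardly tell it from the group. The part of the CA1, dentate, ependymal, thalamic, microglial, oligodendrocyte, fibroblast, pericyte and astrocyte markers was not tested.

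**Figure D3:**
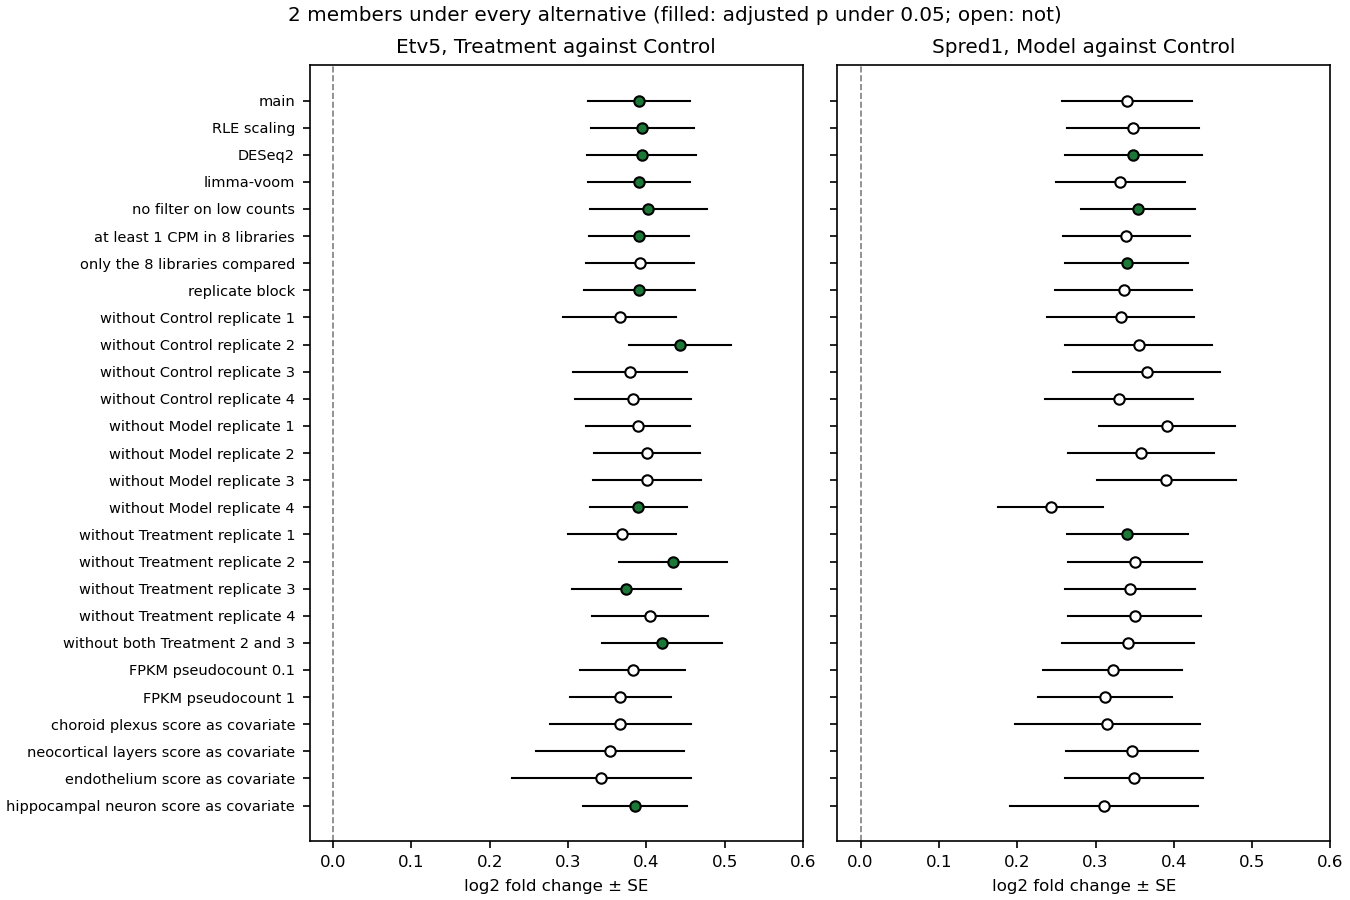
Log2 fold change ± SE (horizontal axes) of Etv5 in Treatment against Control and of Spred1 in Model against Control under the main setting and 26 alternatives, filled where the adjusted p was under 0.05. Etv5 stays between 0.34 and 0.44 and is filled in the main setting and 12 alternatives. Spred1 is filled in 4 alternatives and is lowest, at 0.24, without Model replicate 4.

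The bases just before the transcription starts of Etv5 and Spred1, the pair with the lowest p-values against Control, are shown for reference. They are from RefSeq, in the build GRCm38.p6, which is earlier than the GRCm39 coordinates that the deposited table carries per the submitters' processing notes. Each stretch is the 250 bases before a start, 5′ to 3′ on the strand of the gene. The Etv5 stretch lies at chr16:22439571-22439820 on the minus strand and that of Spred1 at chr2:117120821-117121070 on the plus strand.
Etv5: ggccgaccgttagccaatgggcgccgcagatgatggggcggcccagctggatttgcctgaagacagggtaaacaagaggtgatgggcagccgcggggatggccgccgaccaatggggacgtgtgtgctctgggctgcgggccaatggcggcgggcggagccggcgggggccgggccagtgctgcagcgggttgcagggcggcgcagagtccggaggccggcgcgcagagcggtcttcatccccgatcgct
Spred1: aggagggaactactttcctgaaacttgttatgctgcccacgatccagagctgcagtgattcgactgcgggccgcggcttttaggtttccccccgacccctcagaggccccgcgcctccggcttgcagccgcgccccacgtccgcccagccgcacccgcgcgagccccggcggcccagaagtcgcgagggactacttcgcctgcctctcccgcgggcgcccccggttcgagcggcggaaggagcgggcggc
Neither holds any of 5 motifs searched on both strands, nor does the stretch before a second listed start of Etv5. The motifs were the cAMP response element (TGACGTCA), the AP-1 site (TGANTCA), an ETS site (CCGGAAGT), an EGR site (GCGNGGGCG) and the CArG box, which serum response factor binds. Of 32817 such stretches in the mouse table, 1.55%, 6.75%, 2.88%, 4.7% and 1.47% hold them, in the same order. In GRCm39, per the deposited table, Etv5 spans bases 22200059 to 22258469 of chromosome 16 and Spred1 bases 116951855 to 117012760 of chromosome 2.

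The Sprouty genes, whose products hold back signalling between growth factor receptors and Raf, did not pass in any comparison. Spry2 had 30.4, 28.4, 34.2 and 31.2 CPM in Treatment libraries, 31.3, 26.1, 31.5 and 35.7 CPM in Model libraries, and 26.3, 28.9, 27.7 and 27.6 CPM in Control libraries. Model held both the highest and the lowest of the 12 values, and Control was the tightest group. The Spry2 log2 fold change was 0.17 ± 0.09 for Model over Control and 0.17 ± 0.09 for Treatment over Control (edgeR adjusted p of 0.343 and 0.399), and Treatment over Model was -0.01 ± 0.09 (edgeR adjusted p of 0.984). Without Model replicate 4 its Model over Control value was 0.10.

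Spry4 had 12.0, 14.5, 12.5 and 12.3 CPM in Treatment libraries, 11.7, 14.5, 11.8 and 16.4 CPM in Model libraries, and 13.5, 12.5, 12.2 and 12.6 CPM in Control libraries. The groups overlapped throughout, and Model replicate 4 was again the highest library. Its log2 fold change was 0.10 ± 0.11 for Model over Control, -0.09 ± 0.11 for Treatment over Model and 0.01 ± 0.11 for Treatment over Control, with edgeR adjusted p-values of 0.72, 0.736 and 0.98.

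Among the phosphatases, Dusp1, Dusp4 and Dusp5 encode nuclear enzymes, of which Dusp5 is selective for ERK and Dusp1 and Dusp4 also act on JNK and p38. Dusp6 encodes a cytoplasmic enzyme selective for ERK. None of the 4 passed in any comparison.

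Dusp1, an immediate early gene, had 13.2, 13.8, 14.3 and 14.6 CPM in Treatment libraries, 13.0, 12.3, 10.1 and 12.5 CPM in Model libraries, and 15.8, 11.3, 11.4 and 13.2 CPM in Control libraries. Every Treatment library lay above every Model library, by a gap of 0.19 CPM, while Control spread over both groups. The log2 fold change was 0.23 ± 0.11 for Treatment over Model, -0.11 ± 0.11 for Model over Control and 0.11 ± 0.11 for Treatment over Control, with edgeR adjusted p-values of 0.292, 0.692 and 0.706. Of the 9 genes it alone had a value below 0 in Model against Control, and without Control replicate 1, its highest library, that value was 0.0036.

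Dusp4 had 15.8, 16.0, 15.3 and 16.7 CPM in Treatment libraries, 15.6, 16.9, 21.7 and 20.1 CPM in Model libraries, and 17.4, 13.5, 15.7 and 16.4 CPM in Control libraries. Model replicates 3 and 4 were above all other libraries, and the other Model libraries lay within the Control range. For Dusp4 the log2 fold change was 0.24 ± 0.11 for Model over Control and -0.22 ± 0.11 for Treatment over Model, both short of the threshold (edgeR adjusted p of 0.283 and 0.28). Treatment over Control was 0.02 ± 0.11 with an edgeR adjusted p of 0.964, and its 95% interval of -0.21 to 0.25 does not show that the groups are alike.

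Dusp5 had 12.9, 14.2, 18.4 and 14.8 CPM in Treatment libraries, 14.9, 16.1, 14.9 and 16.6 CPM in Model libraries, and 14.1, 12.7, 14.7 and 14.8 CPM in Control libraries. The Model libraries all lay above the Control libraries, by a gap of 0.11 CPM, and Treatment held both a library near the Control minimum and the highest of the 12. For Dusp5 the log2 fold change was 0.15 ± 0.10 for Model over Control (edgeR adjusted p of 0.507), -0.05 ± 0.10 for Treatment over Model (0.84) and 0.10 ± 0.10 for Treatment over Control (0.719).

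Dusp6 had 42.5, 40.0, 44.4 and 40.8 CPM in Treatment libraries, 34.3, 36.4, 45.4 and 53.1 CPM in Model libraries, and 38.7, 36.2, 41.7 and 38.1 CPM in Control libraries. Model was the widest group, with the lowest and the highest of all libraries, and its SD of 8.68 CPM stood beside 1.96 CPM in Treatment and 2.26 CPM in Control. Its log2 fold change was 0.13 ± 0.11 for Model over Control, -0.01 ± 0.11 for Treatment over Model and 0.12 ± 0.11 for Treatment over Control, with edgeR adjusted p-values of 0.608, 0.967 and 0.685. Without Model replicate 4, Model over Control came to 0.0042 (log2).

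Dusp1 and Dusp5 carry a motif just before their start, in the same RefSeq table of GRCm38.p6, and their stretches are shown with the matched letters in capitals. Dusp1 (chr17:26508473-26508722, minus strand) holds a cAMP response element at bases -143 to -136, counted back from the start. Dusp5 (chr19:53528895-53529144, plus strand) holds 2 CArG boxes at bases -82 to -73 and -72 to -63, which adjoin without overlapping.
Dusp1: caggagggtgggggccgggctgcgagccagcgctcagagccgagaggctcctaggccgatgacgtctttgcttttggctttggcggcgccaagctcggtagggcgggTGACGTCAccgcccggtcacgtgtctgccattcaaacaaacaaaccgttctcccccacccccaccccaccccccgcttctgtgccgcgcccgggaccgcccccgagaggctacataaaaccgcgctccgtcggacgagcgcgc
Dusp5: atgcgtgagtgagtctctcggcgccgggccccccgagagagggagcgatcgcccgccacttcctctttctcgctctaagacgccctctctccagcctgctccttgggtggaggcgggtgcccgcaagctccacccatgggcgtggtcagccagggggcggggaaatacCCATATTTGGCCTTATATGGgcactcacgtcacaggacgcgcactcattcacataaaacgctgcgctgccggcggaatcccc
The stretches of Dusp6 and Spry2 hold none of the 5 motifs. Dusp1 and Dusp5 did not overlap in 1 comparison each, as given above, and neither passed the test. A match to these letters is a description of the sequence and not a measured binding site.

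Levels of different genes were set side by side on the deposited FPKM scale, which divides by transcript length. Over the 12 libraries Spred1 averaged 27.8 ± 3.7 FPKM (SD), Etv5 21.3 ± 2.6, Dusp6 19.9 ± 2.0 and Spry2 16.4 ± 1.7. The next 4 lay close together, Dusp1 at 7.91 ± 0.94 FPKM, Etv4 at 7.13 ± 1.61, Dusp4 at 6.76 ± 0.86 and Dusp5 at 6.76 ± 0.71, and Spry4 was lowest at 2.91 ± 0.32. The ranges over libraries separated at only 2 steps of this order, between Spry2 and Dusp1 and between Dusp5 and Spry4. Spred1 nevertheless stood above Etv5 in 12 of 12 libraries, while Etv5 stood above Dusp6 in 8 of 12 and Dusp1 above Etv4 in 5 of 12. Dusp6 stood above Spry2 in 11 of 12 libraries, and Etv4 above Dusp4 in 7 and Dusp4 above Dusp5 in 6, so that these last steps were within the spread.

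For Dusp6 and Etv4 the deposited scales disagreed, and this touches their comparisons. The ratio of CPM to FPKM rises with the transcript length by which the FPKM of a library was divided, and for 6 of the 9 genes its highest library was 1.04 to 1.05 times its lowest. For Dusp6 the highest ratio was 1.40 times the lowest, and for Etv4 it was 1.74 times. The Dusp6 ratio was 2.07 to 2.28 in Treatment, 1.92 to 2.49 in Model and 1.78 to 1.92 in Control libraries, so that no Treatment library overlapped Control. In FPKM, Dusp6 averaged 19.1 ± 1.6 in Treatment, 19.9 ± 2.5 in Model and 20.7 ± 1.9 in Control (SD, n = 4 each), an order opposite to Treatment over Control in counts. With a pseudocount of 1 and limma, the Dusp6 log2 fold change was -0.11 for Treatment over Control and -0.06 for Model over Control, with adjusted p-values of 0.68 and 0.857. Etv4 averaged 7.95 ± 1.18 FPKM in Treatment, 7.63 ± 0.97 in Model and 5.82 ± 1.91 in Control, and its FPKM-based log2 fold changes of 0.42 and 0.37 against Control did not pass either (limma adjusted p of 0.323 and 0.385). For Dusp1 the highest ratio was 1.15 times the lowest.

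**Figure D4:**
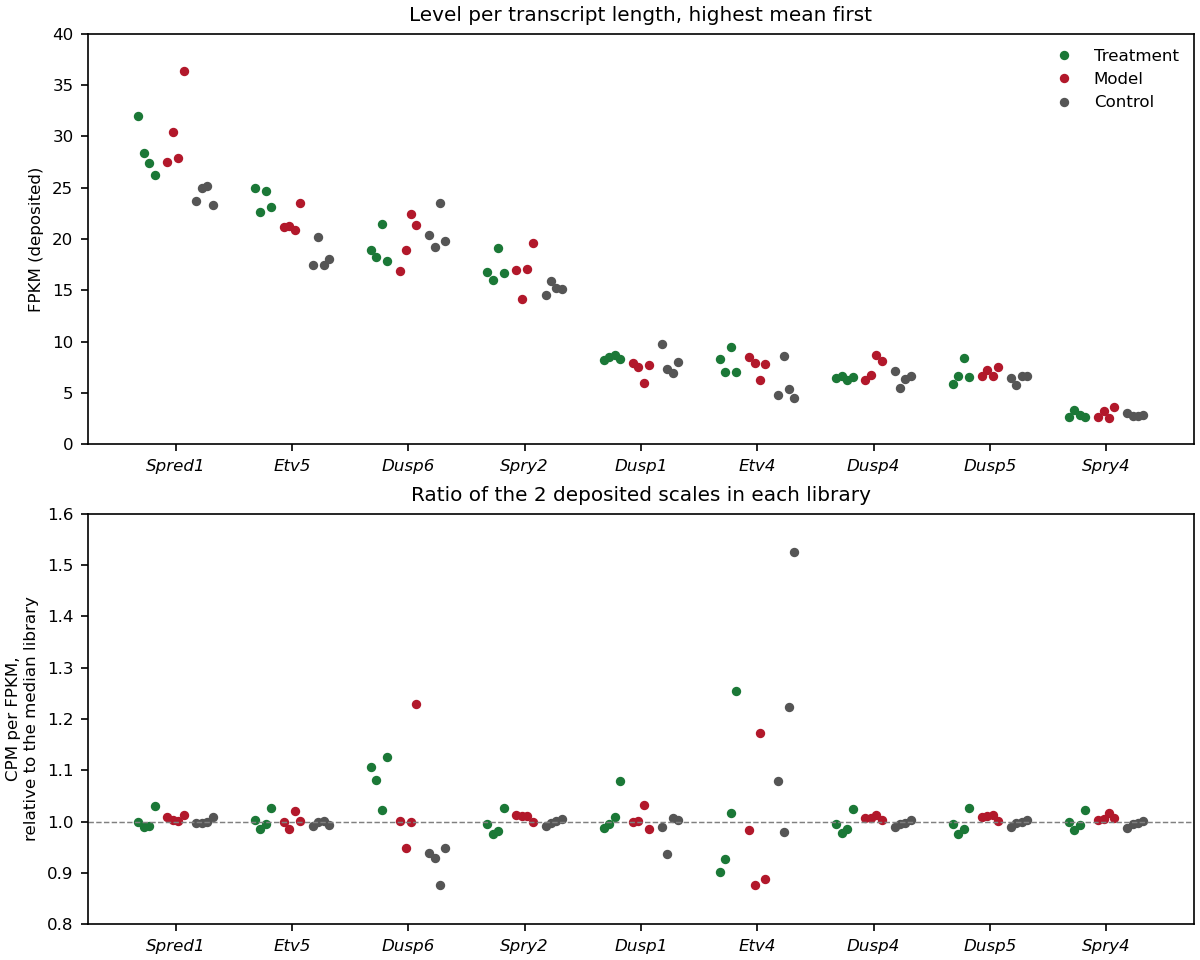
Upper panel, deposited FPKM (vertical axis, from 0) of the 9 genes in each library, ordered by their mean; lower panel, the ratio of CPM to FPKM of each library relative to the median library of that gene (vertical axis, from 0.8). Spred1 is the highest gene and Spry4 the lowest, and in the lower panel Dusp6 and Etv4 scatter most while Spred1 and Etv5 stay near 1.

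The 9 genes followed each other only in part. Over the 12 libraries, 29 of the 36 pairs had a Pearson r of log2 CPM above 0, with a median of 0.287 and a range from -0.415 to 0.72. These values describe 12 libraries of 3 groups and carry no test, since group differences and shared library effects enter them. The highest pairs were Spry2 with Etv5 at 0.72, Spred1 with Etv5 at 0.703, Dusp6 with Spry2 at 0.679 and Etv4 with Etv5 at 0.639. After the group means were taken out, these 4 pairs stood at 0.672, 0.563, 0.637 and 0.564, and the median of the 36 pairs at 0.15. The lowest pair was Spry4 with Etv4.

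Among 13673 other genes, those most like each of the 9 across the 12 libraries were named by Pearson r of log2 CPM, as a description. Spred1 was most like Homer1, a synaptic scaffold gene that neuronal activity induces, at 0.943, and next like Ccng1 at 0.933. Etv5 was most like Clip2 at 0.939 and Sgsm1 at 0.927. Etv4 was most like Sst, the gene of the interneuron peptide somatostatin, at 0.925, and Adcy3 at 0.915. Spry2 was most like Ccdc149 at 0.932 and Wnt7a at 0.891, Spry4 like Insyn2b at 0.86 and Mob3b at 0.819. Dusp1 was most like Thap6 at 0.924 and Chrna4 at 0.916, Dusp4 like Cnep1r1 at 0.894 and Arcn1 at 0.88. Dusp5 was most like Hexim1 at 0.933 and Itm2b at 0.901, Dusp6 like Rnf138 at 0.899 and Slc30a2 at 0.898. The best match among this many genes is high by choice, so these values rank genes and show no more.

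Around the 9 genes, few genes of the pathway passed. Of the other ETS factors, Erf, an ETS repressor that ERK phosphorylates, fell in Model against Control, with 34.6 ± 2.6 CPM in Model and 44.0 ± 1.5 CPM in Control libraries. Its log2 fold change was -0.35 ± 0.07 with an edgeR adjusted p of 0.0383, it was the only gene of the 12 in this list that passed, and it passed in 11 of 26 alternatives. DESeq2 passed 5 of the 12 there (3.54% of all genes), and 5 had an unadjusted edgeR p under 0.05 (15.6% of all genes). In Treatment against Control DESeq2 passed 2 (2.31% of all genes), and 6 had an unadjusted edgeR p under 0.05 (13.9% of all genes). Etv1, the third gene of the Etv4 and Etv5 subfamily, averaged 131.5 ± 4.8 CPM in Treatment, 140.8 ± 14.0 in Model and 113.2 ± 15.1 in Control (SD, n = 4 each). The change of 0.31 ± 0.09 (log2) for Model over Control did not pass (edgeR adjusted p of 0.104). The median of the 12 was 0.09 in Model against Control and 0.22 in Treatment against Control, beside -0.01 over all genes in both.

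In Treatment against Model, Ptpn5, whose product STEP is a neuronal phosphatase that acts on ERK, rose by 0.31 ± 0.06, with 142.5 ± 8.6 CPM in Treatment and 114.6 ± 6.3 CPM in Model libraries. Its edgeR adjusted p was 0.0246, and it was the only gene of the 31 tested in the Ras-ERK cascade that passed. Of all genes tested, 1.88% passed in this comparison. Dusp26, an atypical phosphatase of neurons, rose by 0.45 ± 0.11 with an edgeR adjusted p of 0.0413, alone among 11 atypical genes. Mapk11, which encodes p38 beta, rose by 0.56 ± 0.11 with an edgeR adjusted p of 0.0224, alone among 18 genes of the JNK and p38 cascade. Vegfa, the vascular growth factor gene, rose by 0.35 ± 0.06 with an edgeR adjusted p of 0.0179, alone among 24 other receptor kinase and ligand genes. These 4 genes passed in 16, 11, 21 and 17 of the 26 alternatives. The endothelial markers summed to 346 to 412 CPM in Treatment and 295 to 323 CPM in Model libraries, the neocortical markers to 721 to 1086 CPM in Treatment and 589 to 778 CPM in Model libraries, and the dentate markers to 839 to 954 CPM in Treatment and 1055 to 1273 CPM in Model libraries. With the endothelial score as a covariate 0 genes of the whole table passed in this comparison, with the neocortical score 1 and with the hippocampal neuron score 5. None of these scores overlapped between the groups (endothelial 4.35 to 4.59 in Treatment, 4.13 to 4.24 in Model), so such fits can hardly tell score from group. The choroid plexus score, the only covariate planned beforehand, gave 367 genes, beside 350 without it. Of the 12 hippocampal neuron markers 9 were below 0 (median -0.185), and of the 12 microglial markers 12 were above 0 (median 0.19). Of the 12 dentate markers 0 were above 0 (median -0.34) and 5 fell. The 10 pericyte and smooth muscle markers summed to 203 to 225 CPM in Treatment and 172 to 180 CPM in Model libraries. Above 0 were 1 of 10 ependymal, 3 of 9 CA1 and 2 of 11 CA2 and CA3 markers (1 rose, 1 fell). Most were above 0 for choroid plexus (15 of 18), thalamus and habenula (10 of 12) and oligodendrocytes (10 of 13). The part of the dentate, microglial, pericyte, ependymal, CA1, CA2 and CA3, thalamic and oligodendrocyte markers was not tested.

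Among the activity-regulated early genes, which ERK and calcium signalling induce in neurons, 4 passed in Model against Control, 3 in Treatment against Control and 1 in Treatment against Model. Of all genes tested, 0.79%, 0.102% and 1.88% passed in these comparisons, in the same order. In Model against Control 4 of 24 rose and 0 fell, namely Fosb by 0.87 ± 0.13, Inhba by 0.83 ± 0.17, Homer1 by 0.69 ± 0.14 and Egr3 by 0.50 ± 0.09, with edgeR adjusted p-values of 0.0111, 0.0357, 0.0316 and 0.0212. In Treatment against Control 3 of 24 rose and 0 fell, Fosb by 0.82 ± 0.13, Nptx2 by 0.77 ± 0.14 and Egr3 by 0.64 ± 0.09, with edgeR adjusted p-values of 0.0272, 0.0499 and 0.0168. In Treatment against Model the clock and stress gene Per1 alone rose, by 0.39 ± 0.09 with an edgeR adjusted p of 0.0399. The median of the 24 was 0.07, 0.17 and -0.02 in Model against Control, Treatment against Control and Treatment against Model. Passing alternatives numbered 22, 13, 15 and 16 of 26 for Fosb, Inhba, Homer1 and Egr3 in Model against Control, and 16, 9 and 21 for Fosb, Nptx2 and Egr3 in Treatment against Control. Per1 in Treatment against Model passed in 12 of 26.

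The remaining 6 lists hold the other MAP kinase phosphatases, the other Sprouty and Spred genes, ERK-regulated kinases, other MEK-ERK output genes, FGF ligands and receptors, and glucocorticoid targets. Of their 65 tested genes, 0 passed in edgeR in any of the 3 comparisons. Unadjusted p-values under 0.05 numbered 14 in Model against Control, 18 in Treatment against Model and 8 in Treatment against Control, beside 15.6%, 18.5% and 13.9% of all genes tested. DESeq2 passed 2, 10 and 1 of the 65, beside 3.54%, 5.85% and 2.31% of all genes. The lowest p among the other Sprouty and Spred genes was that of Spred3 in Treatment against Model, at 64.7 ± 5.7 CPM in Treatment and 54.5 ± 2.1 CPM in Model libraries. The log2 fold change was 0.25 ± 0.07 with an edgeR adjusted p of 0.0711.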

How the data were processed

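The tools listed per the submitters' processing notes are STAR 2.7.10a, Salmon 1.10.1, Trim Galore 0.6.7, FastQC 0.12.1 and cutadapt 3.4, with the build GRCm39 and no annotation release. The authors deposited unscaled estimated counts for each gene, and beside them FPKM values, which the authors divided by transcript length and library total. Groups were taken from the sample labels. Estimated counts were rounded and fitted in R 4.3.3 with edgeR 4.0.16 to all 12 libraries (filterByExpr, TMM scaling, 1 mean per group, quasi-likelihood test). CPM values use the TMM-scaled totals, and correlations were taken on log2 CPM (prior count 2). The SE of a fold change comes from its test statistic. The biological coefficient of variation was 10.7%, which with the library totals sets the precision.

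The alternatives were RLE scaling, DESeq2 1.42.0, limma-voom (limma 3.58.1), no filter, at least 1 CPM in 8 libraries, only the 8 libraries compared, a replicate block and omission of each library or of Treatment replicates 2 and 3. Others were FPKM values (at least 0.5 in 4 libraries, pseudocounts of 0.1 and 1) and a choroid plexus score as a covariate. Neocortical, endothelial and neuronal scores were added as covariates after seeing the data. The test was run on simulated counts before use. The 9 genes, the gene lists and the tests were chosen with earlier results of these data known. From each list and comparison the genes that passed were named, at most 4, or where none passed the gene of smallest p could be. Etv1 was named after its values were seen. Promoter stretches were found for 6 of the 9 genes. Figures used Python 3.11.15 and matplotlib 3.10.9.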

Additional observations from a re-analysis of the deposited data

Results flagged for a closer look

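In a group of 4 libraries a value was looked at again when its gap to the nearest of the others, divided by the range of the group, was above Dixon's 95% critical value for 4 samples. Of 54 groups checked, 9 genes in 3 groups in both CPM and FPKM, 2 held such a library, and both are the same one. Etv5 in Model replicate 4 was at 87.0 CPM, with the other Model libraries between 77.2 and 78.5 CPM and a ratio of gap to range of 0.863. In FPKM it was at 23.5, with a ratio of 0.861. At the 95% level about 1 group in 20 is picked out by chance. Without this library Etv5 was at 0.21 ± 0.07 in Model against Control, with an edgeR adjusted p of 0.213, and at 0.39 ± 0.06 in Treatment against Control, with an edgeR adjusted p of 0.0395. In CPM the same library was also the highest of the 12 for Spred1, Spry2, Spry4 and Dusp6. In FPKM this held for Spred1, Spry2 and Spry4 but not for Dusp6. Dusp6 was at 21.3 FPKM in that library and at 23.5 FPKM in Control replicate 3.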

How the results depend on the processing

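The 27 fold changes of the 9 genes were each recomputed under 26 alternatives, 702 values in all: 645 kept their direction and side of the threshold, 14 fell below it, 7 passed it and 36 changed sign, and none of those 36 was called in either setting. The cause of these shifts was not tested.

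The number of genes that passed in Model against Control (147) was 658 in DESeq2, 88 in limma-voom, 783 with no filter, 452 with only the 8 libraries compared, 284 without both Treatment 2 and 3, 5 in FPKM with either pseudocount, and 2, 43 and 4 with the choroid plexus, endothelium and hippocampal neuron scores. Leaving out 1 library gave 8 (without Control replicate 1 or 2) to 273 (without Treatment replicate 3), and 11 to 21 without Model replicate 2, 3 or 4. The number of the 9 genes that passed (0) was 2 in DESeq2, 2 with no filter and 1 with only the 8 libraries compared, and 0 to 1 with 1 library left out. In Treatment against Model (350 genes) the number was 1088 in DESeq2, 1090 with no filter, 137 with only 8 libraries, 132 without both Treatment 2 and 3, 114 and 111 in FPKM with pseudocounts of 0.1 and 1, and 1, 0 and 5 with the neocortical, endothelium and hippocampal neuron scores. Leaving out 1 library gave 0 (without Model replicate 2 or 3) to 459, with 205, 216, 52 and 116 without Control replicate 4, Model replicate 4, Treatment replicate 2 and Treatment replicate 4. In Treatment against Control (19 genes) it was 12 with RLE scaling, 430 in DESeq2, 9 in limma-voom, 748 with no filter, 2 with only 8 libraries, 130 without both Treatment 2 and 3, 9 in FPKM with a pseudocount of 1, and 0 with the choroid plexus, neocortical and endothelium scores. Leaving out 1 library gave 0 (without Control replicate 1) to 73 (without Treatment replicate 3), and 10 or fewer without any other library except Control replicate 4 and Model replicate 4. Of the 9 genes (1) there were 2 with no filter, 0 with only 8 libraries, 0 in FPKM with either pseudocount and 0 with those 3 scores, and 0 to 1 with 1 library left out.

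The replicate block gave 228, 431 and 118 genes in Model against Control, Treatment against Model and Treatment against Control, and changed no call among the 9. Between same-numbered libraries of different groups, r after removal of the group means was -0.0404 to 0.111 over 12 pairs and above 0.1 in 1. Pairs of unlike number were not set beside them, so whether libraries of 1 number share an effect was not tested.

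Log2 fold changes that changed sign were as follows. In Model against Control, Dusp1 was 0.10 with the neuron score and -0.17 to 0.0036 with 1 library left out, Dusp6 was -0.062 and -0.060 in FPKM with pseudocounts of 0.1 and 1, and Spry4 was -0.0039 to 0.17 with 1 library left out. In Treatment against Model with the neocortical score, Dusp5 was 0.12, Dusp6 0.12 and Spry2 0.049. With the neuron score, Dusp1 was -0.013, Dusp6 0.10 and Etv4 -0.0075. Dusp6 was 0.0037 in limma-voom, and Spry2 was 0.023 and 0.021 in FPKM. With 1 library left out, Dusp5 was -0.17 to 0.015, Dusp6 -0.11 to 0.11, Spry2 -0.083 to 0.066 and Spry4 -0.16 to 0.015. In Treatment against Control, Dusp1 was -0.064 with the neocortical score, Dusp4 -0.012 with the choroid plexus score, and Dusp6 -0.11 in FPKM with pseudocounts of 0.1 and 1. Without both Treatment 2 and 3, Dusp5 was -0.020 and Spry4 -0.064. Spry4 was -0.067, -0.19 and -0.00047 with the neocortical, endothelium and neuron scores. With 1 library left out, Dusp4 was -0.054 to 0.072, Dusp5 -0.0099 to 0.17 and Spry4 -0.042 to 0.043.

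Etv4 had the fewest estimated counts, 114 to 250 per library against 2455 to 4876 for Spred1, and its SE of 0.15 is the widest of the 9. The SE did not follow the counts throughout. In Model against Control it was 0.11 both for Dusp6, with 660 to 1238 counts, and for Spry4, with 210 to 382. The cause of these widths was not tested.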
